A study of Mus musculus with 16 samples.

Results

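The 36 genes described here encode Wnt ligands, Frizzled receptors, the secreted Frizzled-related proteins (Sfrps, with Frzb) and the Frat proteins. They were chosen by gene name: every probe other than a control spot whose gene name on the array was Frzb, or was Wnt, Fzd, Sfrp or Frat followed by a number. This took in 44 of 55681 probes, for 19 ligands, 10 receptors, 5 genes of the Sfrp family and 2 Frats. Transcripts were measured in hearts of C57BL/6 mice on 16 Agilent one-colour arrays, 4 in each of 4 groups. In the groups T1R1, T2R1 and T3R1, mice were held in a mesh box in the cage of an aggressor mouse and let out for short spells of attack, over 1, 2 and 3 days of stress followed by 1 day of rest, to model posttraumatic stress disorder. Control mice stayed in mesh boxes of the same kind in a cage that held no aggressor, and their labels name 2 days and 1 day of rest, so T1R1 and T3R1 had no control of their own length. All groups were of the same strain, their labels name no altered gene or drug, and RNA came from individual hearts. Age and sex are not given in the sources used here, and the treatment text of the labels describes longer runs of exposure than those of these groups.

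Wnt proteins are lipid-modified signals that act between neighbouring cells. They bind Frizzled receptors, which work with the coreceptors Lrp5 and Lrp6 to keep beta-catenin from being destroyed, or with other coreceptors in routes that do not use beta-catenin. Sfrps carry a domain like the Wnt-binding part of Frizzled and can hold Wnt proteins outside the cell, and Frats bind the kinase GSK3 inside it. In the heart the pathway is best known from development, and in the adult organ from work on injured and scarring tissue, in which fibroblasts are a known source of Sfrps.

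The probes behind the clearest differences are shown by their first 30 bases of 60, read 5′ to 3′, with positions in the mouse build mm9 as the array files give them. The probes of Sfrp1 (chr8:24559438-24559497, plus strand), Sfrp2 (chr3:83577864-83577923, plus strand) and Frzb (chr2:80252582-80252641, minus strand) were the only ones for these genes. Fzd2 had probes at chr11:102467613-102467672 and chr11:102469045-102469104 on the plus strand, and both are shown because they could be compared as separate measurements of the same gene. Wnt1 also had a pair, at chr15:98624201-98624260 and chr15:98623276-98623335 on the plus strand, of which the first was detected on 16 arrays and the other on 0. The files do not say whether a probe lies in a coding exon or a UTR.
Sfrp1 probe: ttaaaatagtcattccggagagtcagggaa
Sfrp2 probe: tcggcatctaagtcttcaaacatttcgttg
Frzb probe: gtgcaccagggtgttatttaacagaggtat
Fzd2 probe, first position: tcacagtctacatgatcaaatacctcatga
Fzd2 probe, second position: cgtgacattctatatcataagatattgata
Wnt1 probe, detected: agtggctcctcgcccccaccaatgtagtat
Wnt1 probe, not detected: tgctgccacgtcagctgccgcaactgcacg

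Promoters of 3 members that were high together on the T3R1 arrays are shown too, since beta-catenin acts through TCF and LEF factors whose core site is often written as CTTTGA or as CTTTGT. Each run is 300 bases around the start of the gene from RefSeq's table for GRCm38.p6, and capitals mark a match on either strand to either of these, to GGGCGG (the GC box) or to TATAAA (the TATA box). The windows lie at chr2:80447347-80447646 on the minus strand for Frzb, chr3:83766071-83766370 on the plus strand for Sfrp2 and chr5:4758167-4758466 on the minus strand for Fzd1.
Frzb promoter: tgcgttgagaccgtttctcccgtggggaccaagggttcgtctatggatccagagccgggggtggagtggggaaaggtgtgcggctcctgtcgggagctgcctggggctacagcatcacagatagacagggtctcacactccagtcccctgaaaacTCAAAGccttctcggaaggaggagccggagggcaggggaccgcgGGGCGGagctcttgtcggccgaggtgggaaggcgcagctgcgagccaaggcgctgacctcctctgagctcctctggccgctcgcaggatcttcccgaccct
Sfrp2 promoter: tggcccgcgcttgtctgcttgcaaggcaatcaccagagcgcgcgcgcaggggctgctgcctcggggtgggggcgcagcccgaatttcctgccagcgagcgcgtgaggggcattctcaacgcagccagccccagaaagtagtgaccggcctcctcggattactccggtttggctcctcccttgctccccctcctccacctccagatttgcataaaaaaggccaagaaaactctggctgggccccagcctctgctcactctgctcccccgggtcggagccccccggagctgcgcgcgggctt
Fzd1 promoter: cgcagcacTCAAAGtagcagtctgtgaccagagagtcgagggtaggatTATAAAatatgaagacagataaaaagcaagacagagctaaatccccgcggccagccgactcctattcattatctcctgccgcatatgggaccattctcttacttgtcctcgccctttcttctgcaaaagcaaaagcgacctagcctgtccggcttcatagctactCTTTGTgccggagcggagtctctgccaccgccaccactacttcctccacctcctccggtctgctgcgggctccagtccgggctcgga
The TCF core letters stood in 1 place in the Frzb window and in 2 in the Fzd1 window, and these 4 sets of letters had no match in the Sfrp2 window. Over the members, 5 of the 22 windows listed for 19 genes held CTTTGA or CTTTGT (22.7%), against 31.2% of 32851 windows of all genes. GGGCGG stood in 16 of the 22 (72.7%), against 35.7% of all. A match of 6 letters is a description of the window and not a measured site.

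The 16 arrays lay on 2 slides, scanned separately. T3R1 and control shared a slide, and T1R1 and T2R1 shared the other. The pairs T3R1 with control and T2R1 with T1R1 can thus be compared inside a single slide, whereas in every other pair slide and exposure cannot be told apart. Between 46.51% and 67.08% of the spots of an array were well above background. Control replicate 1 stood apart: the brightness at its 75th percentile was 547 scanner units, against 257 to 273 on control replicates 2 to 4, and its mean correlation across features was 0.988 with the T3R1 arrays but 0.970 with the other controls. Results of the family against control are therefore given with and without it, and those of other pathway genes where a call depends on it. That array was singled out from these same data, partly by its likeness to T3R1. Leaving it out on that ground favours a wider difference of T3R1 from control. Calls and adjusted p values of T3R1 against control without it are therefore descriptive. All 8 cardiomyocyte markers were well above background on all 16 arrays.

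**Figure D1:**
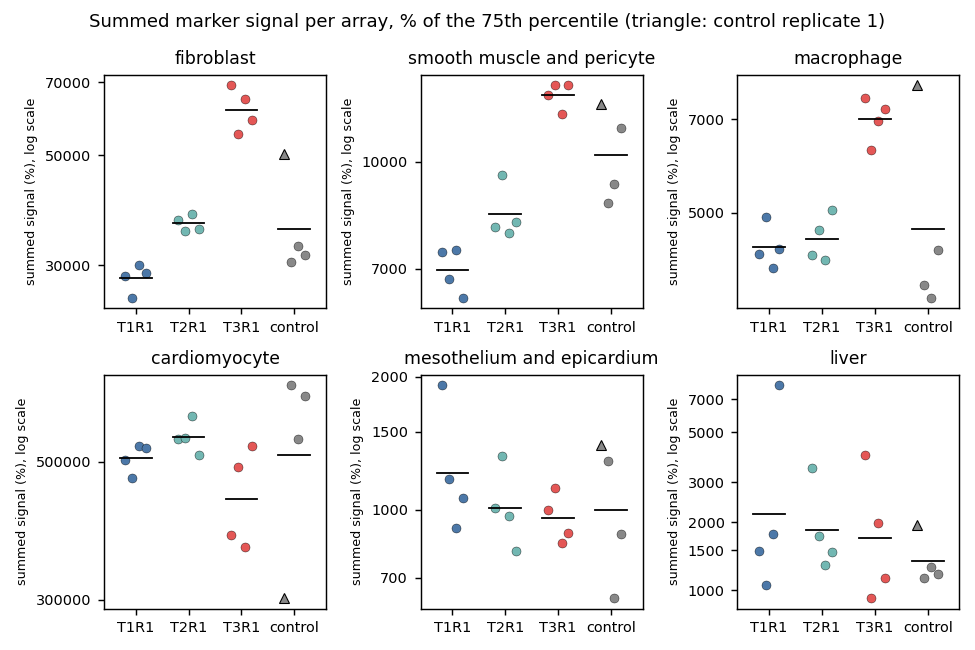
Summed signal of marker genes of 6 cell or tissue types on each array, on a log scale, in percent of the array's 75th percentile, by group. The bar is the geometric mean of 4 arrays and the triangle is control replicate 1. The fibroblast sum was between 55100 and 69100 on the T3R1 arrays and 50300 on control replicate 1, above the other 11 arrays.

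Sums of cell type markers differed between the groups, as the plot of marker sums shows. Signals are given throughout in percent of the array's 75th percentile, so that 100 is a spot as bright as that percentile. All 8 fibroblast markers, among them Col1a1, Pdgfra and Tcf21, were well above background on every array, and none was at 0. Their sum was 25800 to 30100 in T1R1, 35200 to 38100 in T2R1 and 55100 to 69100 in T3R1, against 30400 to 32800 on control replicates 2 to 4 and 50300 on control replicate 1. The collagens Col1a1, Col1a2 and Col3a1 made most of that difference: Col1a2 was 16500 to 23800 in T3R1, against 4110 to 4540 on control replicates 2 to 4. Pdgfra was 316 to 344 in T3R1, against 284 to 292 on those controls, and Dcn lay the other way, at 20400 to 21400 against 21600 to 24200. The macrophage sum, also with all 6 markers well above background everywhere, was 4100 to 4930 in T1R1, 4210 to 5050 in T2R1 and 6280 to 7560 in T3R1, against 3680 to 4380 on control replicates 2 to 4 and 7920 on control replicate 1. Smooth muscle and pericyte markers, 7 of 7 detected everywhere, summed to 6350 to 7450 in T1R1, 7880 to 9560 in T2R1 and 11700 to 12900 in T3R1, against 8700 to 12100 in control. Within that list Rgs5 and Kcnj8 lay the other way, at 1160 to 1450 and 137 to 185 in T3R1, against 1970 to 2030 and 246 to 252 on control replicates 2 to 4. Cspg4, also a pericyte marker, was higher in T3R1 (408 to 465, against 302 to 309 on those controls). Myh11, of smooth muscle, overlapped (79.3 to 126 against 104 to 156). More cells of a type and more RNA per cell cannot be told apart in whole tissue.

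**Figure D2:**
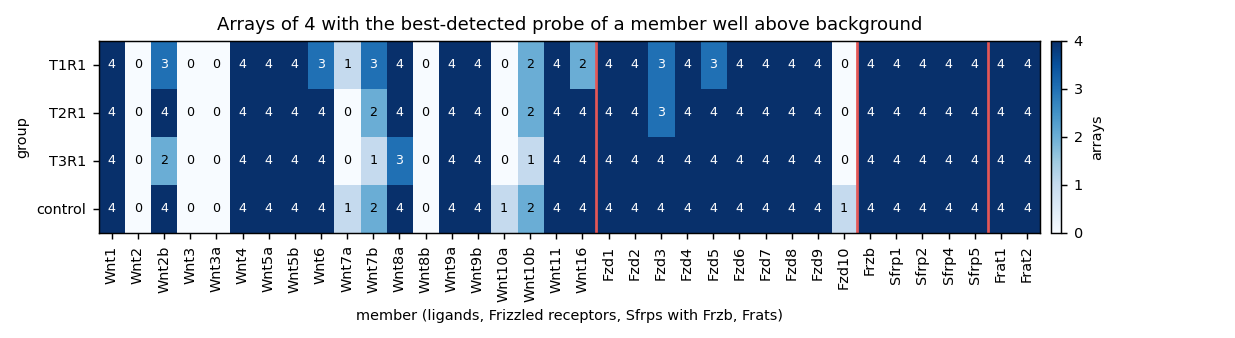
For each of the 36 genes, the number of arrays of 4 in each group on which its best-detected probe was well above background. Vertical lines separate ligands, Frizzled receptors, Sfrps with Frzb, and Frats. Wnt2, Wnt3, Wnt3a and Wnt8b were at 0 in every group, and the 5 Sfrp genes and both Frats at 4 in every group.

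Transcripts of most of the family were detected in heart. A gene was tested if the 4 arrays of some group all showed a probe of it well above background, which 27 of the 36 genes met, and 21 of these were detected on all 16 arrays. All 5 genes of the Sfrp family and both Frats were among the 21, with 7 of the 10 receptors and 7 of the 19 ligands. The other 6 tested genes (Fzd3, Fzd5, Wnt2b, Wnt6, Wnt8a and Wnt16) entered through some groups only. The 9 genes that did not enter were 8 ligands and 1 receptor. Wnt2, Wnt3, Wnt3a and Wnt8b, among them the classical activators of beta-catenin signalling Wnt3 and Wnt3a, were well above background on no array. Wnt10a and Fzd10 reached it on 1 array each, both in control, Wnt7a on 2 arrays, Wnt10b on 7 and Wnt7b on 8.

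Some members lie side by side in the genome and were detected very differently. The probe of Wnt6, detected on 15 arrays, lies 19113 bases from that of Wnt10a on chromosome 1, detected on 1. On chromosome 11 Wnt9b, detected on 16 arrays, lies 90097 bases from Wnt3 (0 arrays), and Wnt9a, detected on 16, lies 85338 bases from Wnt3a (0 arrays). On chromosome 15 the nearer Wnt1 probe, detected on 0 arrays, lies 21008 bases from that of Wnt10b, detected on 7. The other Wnt1 probe, further away, was detected on 16, so the 2 Wnt1 probes disagree. The Frat1 and Frat2 probes lie 13785 bases apart on chromosome 19, and both genes were detected on 16 arrays.

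After 3 days the transcripts of 2 secreted inhibitors, Sfrp1 and Sfrp2, and of the receptor Fzd2 were higher than in control, and no ligand or Frat passed the test. These are 3 of 27 members (11.1%) past an adjusted p of 0.05 in limma's moderated test, where 0.694% of the 22763 features tested passed (0.505% higher and 0.189% lower). Under the alternative settings described below, the call of Sfrp1 was lost in 7 of 32, and those of Sfrp2 and Fzd2 in 17 of 32 each. The direction was kept in all. After 1 day 1 member was higher and 2 lower than in control (11.1%, where 9.85% of all features passed, 7.74% higher and 2.11% lower), and after 2 days 3 were higher and 2 lower (18.5%, where 18.4% of all features passed, 14.8% higher and 3.58% lower). Members therefore passed about as often as other features in both of those comparisons. Between T3R1 and T1R1 5 members were higher and 3 lower in T3R1 (29.6%, against 22.9% of all features, 7.65% higher and 15.2% lower), and between T3R1 and T2R1 6 were higher and 4 lower (37%, against 26.9% of all features, 6.59% higher and 20.4% lower). Between T2R1 and T1R1 limma called 0 of 27 members, 3 reached an unadjusted p under 0.05, and 0% of all features passed. The median log2 difference over the 27 members was -0.00172 in T1R1 and -0.00172 in T2R1 against control, where that over all features was -0.00598 and 0.0196, and in T3R1 against control it was -0.00904, where all features had -0.0766. In all, 14 members passed in at least 1 of the 6 comparisons and 13 in none. The share of all features that passed in at least 1 comparison is not given here. The count of 14 therefore does not set the family apart.

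**Figure D3:**
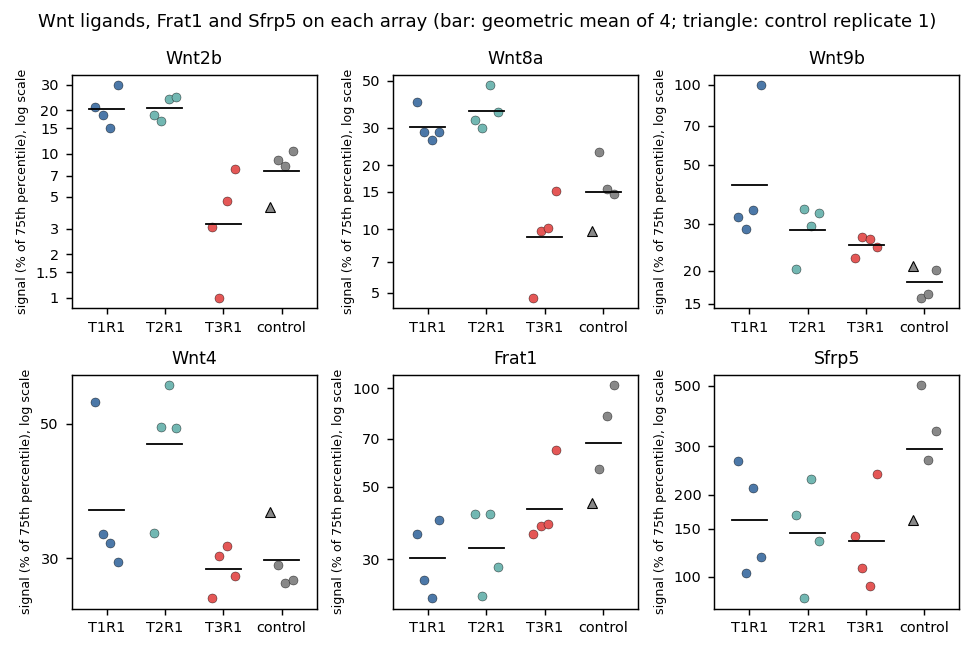
Signal of 4 Wnt ligands, Frat1 and Sfrp5 on each array, in percent of the array's 75th percentile on a log scale, by group. The bar is the geometric mean of 4 arrays and the triangle is control replicate 1. Wnt2b lay between 15 and 29.9 on the T1R1 and T2R1 arrays, between 0.996 and 7.79 on the T3R1 arrays and between 4.25 and 10.4 on the control arrays.

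Among the ligands, Wnt2b and Wnt8a separated the groups most widely, and the line between high and low ran between the slides. Wnt2b, which can act through beta-catenin, had signals of 21.2, 18.7, 15 and 29.9 in T1R1, 18.6, 16.8, 23.8 and 24.8 in T2R1, and 3.08, 0.996, 4.66 and 7.79 in T3R1, against 4.25, 9.08, 8.24 and 10.4 in control. All 8 arrays of T1R1 and T2R1 lay above all 8 of T3R1 and control. Its T3R1 level was 6.31-fold lower than in T1R1 (log2 difference -2.66 ± 0.48 SE, adjusted p = 0.00163) and 6.39-fold lower than in T2R1 (-2.68 ± 0.48, adjusted p = 0.00116). The probe was well above background on 2 of the 4 T3R1 arrays and 3 of the 4 T1R1 arrays, and the gene entered the test through T2R1 and control, so these folds rest partly on values near background. Under the alternatives the log2 difference ran from -3.08 to -0.791 against T1R1 and from -3.1 to -0.859 against T2R1. Against control Wnt2b was higher in T2R1 (1.45 ± 0.48, adjusted p = 0.0489), but not past the threshold without control replicate 1 (1.18 ± 0.50, adjusted p = 0.101), and its value in T1R1 was 1.44 ± 0.48 (adjusted p = 0.0741). The T2R1 call was lost under 21 of 31 alternatives. Against the control arrays of their own slide the T3R1 arrays overlapped in Wnt2b (-1.22 ± 0.48, adjusted p = 0.160), and passed as lower without control replicate 1 (-1.50 ± 0.50, adjusted p = 0.0381).

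Wnt8a, a ligand known from the early embryo, followed the same order. Its signals were 39.7, 28.7, 26.2 and 28.7 in T1R1, 32.6, 29.8, 47.7 and 35.8 in T2R1, and 4.74, 9.78, 10.1 and 15.2 in T3R1, against 9.75, 23, 15.5 and 14.7 in control. No array of T1R1 or T2R1 was as low as any array of T3R1 or control. It was 3.31-fold lower in T3R1 than in T1R1 (-1.72 ± 0.31, adjusted p = 0.00167) and 3.90-fold lower than in T2R1 (-1.96 ± 0.31, adjusted p = 0.000503). The probe was well above background on 3 of 4 T3R1 arrays, and the gene entered the test through the other groups, so these folds too rest partly on a value near background. Under the alternatives the Wnt8a difference ran from -1.97 to -0.815 against T1R1 and from -2.21 to -0.98 against T2R1. It was 2.39-fold higher in T2R1 than in control (1.26 ± 0.31, adjusted p = 0.0127, and 1.05 ± 0.32 without control replicate 1, adjusted p = 0.0305). The T1R1 value against control was 1.02 ± 0.31 (adjusted p = 0.0545). Within the slide, T3R1 and control overlapped (-0.71 ± 0.31, adjusted p = 0.201), and without control replicate 1 the difference passed (-0.92 ± 0.32, adjusted p = 0.0435).

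Wnt4, needed for kidney tubules and the female gonad, was high on 3 of 4 T2R1 arrays and on 1 T1R1 array. Its signals were 54.3, 32.9, 31.8 and 29.6 in T1R1, 33, 49.4, 57.8 and 49.1 in T2R1, and 25.8, 30.3, 31.4 and 28.1 in T3R1, against 35.8, 29.3, 27.3 and 27.6 in control. T2R1 was higher than control by 0.64 ± 0.19 on the log2 scale (adjusted p = 0.0336, and 0.72 ± 0.21 without control replicate 1, adjusted p = 0.0240), although 1 T2R1 array lay below control replicate 1. This call was lost under 12 of 32 alternatives. T3R1 was lower than T2R1 by a log2 difference of -0.69 ± 0.19 (adjusted p = 0.0177) with no overlap. The highest T1R1 value, on T1R1 replicate 1, stood on the array with the highest sum of 8 mesothelial and epicardial markers, 6 of them well above background on every array (1910, against 630 to 1400 on the other 15), and the part of those cells was not tested. The probe used kept the array's gene name without a RefSeq match. A further Wnt4 probe, with a match, was well above background on 6 arrays and was not tested. On it T2R1 (2.32 to 5.13) and T3R1 (2.78 to 4.71) overlapped, against 0.909 to 3.3 in control.

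Wnt9b, which signals to the early kidney, was the only ligand past the threshold in T1R1 against control. It had signals of 31.9, 28.7, 33.8 and 99.6 in T1R1, 20.2, 34.1, 29.3 and 32.9 in T2R1, and 22.4, 26.7, 26.2 and 24.6 in T3R1, against 20.8, 15.8, 16.4 and 20.1 in control. All T1R1 arrays lay above all control arrays, with T1R1 replicate 4 far above the others, and the difference was 2.31-fold (1.21 ± 0.31, adjusted p = 0.0244, and 1.27 ± 0.34 without control replicate 1, adjusted p = 0.0257). T1R1 replicate 4 also had the highest sum of 7 liver markers, 4 of them well above background on every array (8060, against 1060 to 1770 on the other T1R1 arrays, 1300 to 3480 in T2R1, 923 to 3980 in T3R1 and 1130 to 1950 in control). The next highest liver sums were on T3R1 replicate 1 (3980) and T2R1 replicate 1 (3480), where Wnt9b was the lowest of its group (22.4 and 20.2). The part of liver RNA in the Wnt9b value was not tested.

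Wnt1, best known from the developing brain, had signals of 146, 152, 139 and 131 in T1R1, 167, 155, 175 and 167 in T2R1, and 111, 144, 117 and 152 in T3R1, against 109, 157, 132 and 129 in control. T3R1 was lower than T2R1 by a small margin (-0.35 ± 0.12, adjusted p = 0.0419), a direction that turned to 0.00205 when arrays were centred on their median. The call was lost, with the direction kept, under a further 12 of 32 alternatives. Wnt5b, which mostly works without beta-catenin, had the highest mean signal of the ligand probes, a fact of the probe as much as of the transcript. Its signals were 128, 246, 183 and 198 in T1R1, 170, 196, 176 and 167 in T2R1, and 202, 224, 209 and 236 in T3R1, against 200, 155, 142 and 168 in control. All 4 T3R1 values lay above all 4 control values, with a difference of 0.40 ± 0.16 that did not pass (adjusted p = 0.168), and that passed without control replicate 1 (0.49 ± 0.16, adjusted p = 0.0377). Wnt5a, Wnt6, Wnt9a, Wnt11 and Wnt16 passed in no comparison. Wnt11, known for its role in forming the heart, had group means of 46.6 ± 4.84 in T1R1, 48.6 ± 3.63 in T2R1 and 41.9 ± 2.40 in T3R1, against 44.4 ± 5.25 in control (SD, n = 4 each). Wnt5a, the usual partner of Ror2, had means of 93.5 ± 12.6 in T1R1, 94.0 ± 12.4 in T2R1 and 80.7 ± 8.32 in T3R1, against 94.6 ± 8.61 in control (SD, n = 4 each). Over the 6 comparisons the log2 differences of Wnt9a ran from -0.22 to 0.17, those of Wnt6 from -0.43 to 0.053, and those of Wnt16 from -0.41 to 0.62.

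**Figure D4:**
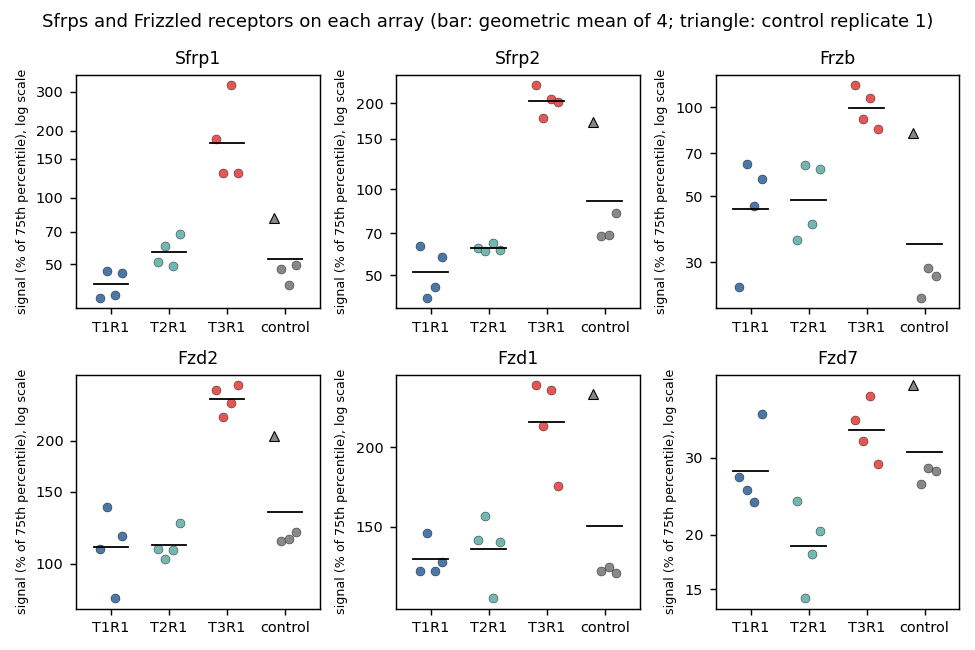
Signal of Sfrp1, Sfrp2, Frzb, Fzd2, Fzd1 and Fzd7 on each array, in percent of the array's 75th percentile on a log scale, by group. The bar is the geometric mean of 4 arrays and the triangle is control replicate 1. In all 6 panels control replicate 1 is the highest of the controls, and for Sfrp1, Sfrp2, Frzb and Fzd2 every T3R1 array lies above every T1R1, T2R1 and control array.

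Of the 9 receptors tested, Fzd2 was higher in T3R1 than in each other group, and its close relatives Fzd1 and Fzd7 were higher in T3R1 than in T2R1. Fzd2 had signals of 109, 138, 82.5 and 117 in T1R1, 109, 103, 108 and 126 in T2R1, and 266, 228, 248 and 273 in T3R1, against 206, 114, 115 and 120 in control. The T3R1 arrays lay above all others, and control replicate 1 lay between them and the remaining arrays. Within the slide, T3R1 was 1.88-fold higher than control (0.91 ± 0.18, adjusted p = 0.0389), and 2.17-fold higher when control replicate 1 was left out (1.12 ± 0.14, adjusted p = 0.000207). It was 2.31-fold higher in T3R1 than in T1R1 (1.21 ± 0.18, adjusted p = 0.000551) and 2.27-fold higher than in T2R1 (1.18 ± 0.18, adjusted p = 0.000428). The second Fzd2 probe, shown above, was well above background on 2 of 4 T1R1 and 3 of 4 T2R1 arrays and entered through T3R1 and control, where it is higher. It gave a smaller difference against control (0.44 ± 0.18, adjusted p = 0.193) and passed against T1R1 (0.55 ± 0.18, adjusted p = 0.0479) and T2R1 (1.07 ± 0.18, adjusted p = 0.000911). In T2R1 against control the second probe passed as lower (-0.63 ± 0.18, adjusted p = 0.0299), and the first had the same sign without passing (-0.27 ± 0.18).

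Fzd1 had signals of 128, 147, 128 and 132 in T1R1, 143, 156, 116 and 142 in T2R1, and 250, 216, 246 and 174 in T3R1, against 242, 128, 130 and 127 in control. It was higher in T3R1 than in T1R1 (0.72 ± 0.19, adjusted p = 0.0142) and than in T2R1 (0.66 ± 0.19, adjusted p = 0.0179), with no overlap in either pair. Against control the difference of 0.55 ± 0.19 did not pass (adjusted p = 0.121), since control replicate 1 lay among the T3R1 arrays, and without it the difference was 0.77 ± 0.13 (adjusted p = 0.00100). Fzd7 had signals of 27.1, 25.3, 23.8 and 37.9 in T1R1, 23.9, 14.3, 18.1 and 20.4 in T2R1, and 36.7, 32.8, 41.7 and 29 in T3R1, against 44, 26.1, 28.5 and 28 in control. T2R1 was the low group on this probe. T3R1 was 1.84-fold higher than T2R1 (0.88 ± 0.20, adjusted p = 0.00527), and T2R1 was 1.64-fold lower than control (-0.72 ± 0.20, adjusted p = 0.0230, and -0.55 ± 0.19 without control replicate 1, adjusted p = 0.0477). A further Fzd7 probe was well above background on 7 arrays and was not tested. On it T2R1 (2.23 to 4.98) overlapped T1R1 (2.06 to 4.38), T3R1 (3.66 to 6.76) and control (2.1 to 5.88), and was not the low group.

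Fzd3, a receptor of axon guidance and planar polarity, and Fzd8, a relative of Fzd5, passed in 1 comparison each. Fzd3 had signals of 8.46, 9.06, 3.85 and 16 in T1R1, 8.19, 7.62, 1.7 and 6.81 in T2R1, and 13, 14.4, 13 and 11.9 in T3R1, against 9.47, 13.9, 13.6 and 10.8 in control. Its probe was well above background on 3 of 4 T1R1 and 3 of 4 T2R1 arrays and entered the test through T3R1 and control, where it is high, so the test of T3R1 against T2R1 is not independent of that choice. T3R1 was higher than T2R1 (1.33 ± 0.46, adjusted p = 0.0437), and the call was lost under 15 of 31 alternatives, with values of 0.235 to 1.72, among them leaving out T2R1 replicate 3, whose signal of 1.7 was the lowest. Fzd8 had signals of 44.5, 35.3, 45.7 and 41.9 in T1R1, 36.9, 33.3, 37 and 42.1 in T2R1, and 24.2, 29.2, 29.5 and 34.6 in T3R1, against 24.8, 36.9, 32.1 and 39 in control. T3R1 was lower than T1R1 (-0.52 ± 0.15, adjusted p = 0.0216), with every T3R1 array below every T1R1 array. That call was lost under 8 of 32 alternatives, with values of -0.597 to -0.111, among them normexp background correction, quantile normalization, centring on the median, the authors' values, and leaving out T1R1 replicate 1 or 3 or T3R1 replicate 1.

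The other receptors tested did not pass in any comparison. Fzd4, a receptor of blood vessels that also binds norrin, had the highest mean signal of the receptor probes, with 653, 467, 725 and 483 in T1R1, 711, 648, 731 and 535 in T2R1, and 514, 546, 615 and 550 in T3R1, against 515, 687, 689 and 727 in control. The groups overlapped, and the log2 differences of Fzd4 over the 6 comparisons lay between -0.23 and 0.19. Those of Fzd5 lay between -0.21 and 0.15, those of Fzd6 between -0.34 and 0.14 and those of Fzd9 between -0.11 and 0.32. Fzd5 had a further probe that passed in no comparison either.

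Sfrp1 and Sfrp2, closely related Wnt-binding proteins, were higher in T3R1 than in each other group, and Sfrp1 had the lowest p of the family in T3R1 against control. Sfrp1 had signals of 35.3, 46.8, 36.4 and 45.6 in T1R1, 51.3, 60.6, 49 and 68.5 in T2R1, and 184, 129, 322 and 129 in T3R1, against 80.7, 47.7, 40.2 and 49.4 in control. The lowest T3R1 array lay above the highest array of every other group. T3R1 was 3.37-fold higher than control (1.75 ± 0.27, adjusted p = 0.0176) and 3.88-fold higher without control replicate 1 (1.96 ± 0.26, adjusted p = 0.000334). It was 4.35-fold higher than T1R1 (2.12 ± 0.27, adjusted p = 0.000186) and 3.11-fold higher than T2R1 (1.64 ± 0.27, adjusted p = 0.000641). Between T2R1 and T1R1, on their shared slide, the Sfrp1 arrays did not overlap, and the difference of 0.48 ± 0.27 did not pass (adjusted p = 0.660).

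Sfrp2 had signals of 63.5, 41.7, 45.4 and 57.9 in T1R1, 62.3, 60.7, 64.7 and 61.5 in T2R1, and 231, 177, 206 and 201 in T3R1, against 172, 68.8, 69.3 and 82.7 in control. T3R1 was the high group, and control replicate 1 came close to it. T3R1 was 2.23-fold higher than control (1.16 ± 0.24, adjusted p = 0.0410) and 2.77-fold higher without control replicate 1 (1.47 ± 0.14, adjusted p = 3.98e-05). It was 3.95-fold higher than T1R1 (1.98 ± 0.24, adjusted p = 0.000131) and 3.26-fold higher than T2R1 (1.70 ± 0.24, adjusted p = 0.000184). In T1R1, on the other slide, Sfrp2 was lower than in control (-0.82 ± 0.24, adjusted p = 0.0419, and -0.51 ± 0.14 without control replicate 1, adjusted p = 0.0255). Its direction against control thus differed between T1R1 and T3R1, though slide and exposure cannot be told apart in T1R1. The calls were lost under 15 of 32 alternatives in T1R1 and 17 of 32 in T3R1, with the direction kept.

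Frzb, also called Sfrp3 and known from cartilage, had signals of 24.7, 64.6, 46.5 and 57.3 in T1R1, 35.5, 63.8, 40.4 and 62.1 in T2R1, and 119, 91.1, 108 and 84.6 in T3R1, against 81.7, 22.7, 28.6 and 27 in control. Every T3R1 array lay above every other array, with control replicate 1 just under the lowest. The difference of T3R1 from control, 1.53 ± 0.38, did not pass (adjusted p = 0.0614), and leaving out control replicate 1 made it 3.84-fold (1.94 ± 0.30, adjusted p = 0.000708). T3R1 was higher than T1R1 (1.14 ± 0.38, adjusted p = 0.0428), and the difference from T2R1 was 1.03 ± 0.38 (adjusted p = 0.0557). The call against T1R1 was lost under 13 of 32 alternatives, among them leaving out any single T3R1 array. Without control replicate 1, T2R1 was also higher than control (0.91 ± 0.30, adjusted p = 0.0409).

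The summed fibroblast markers, carried by the collagens, were high on the same arrays as Sfrp1, Sfrp2, Frzb, Fzd1 and Fzd2: between 55100 and 69100 on the 4 T3R1 arrays and 50300 on control replicate 1, against at most 38100 elsewhere. The macrophage sum divided the arrays in the same way (6280 to 7560 in T3R1 and 7920 on control replicate 1, against at most 5050 elsewhere). So did the smooth muscle and pericyte sum, by a narrow margin (11700 to 12900 and 12100, against at most 11200). The part of any of these cell types in these differences was not tested. Sfrp4 had means of 11.9 ± 3.16 in T1R1, 12.2 ± 1.43 in T2R1 and 17.5 ± 7.39 in T3R1, against 15.8 ± 11.0 in control (SD, n = 4 each), and passed in no comparison. Its highest values were 27 and 19.8 on T3R1 replicates 1 and 4 and 31.4 on control replicate 1, with 15.9 at most elsewhere. Without control replicate 1 the T3R1 value was 0.72 ± 0.33 (adjusted p = 0.121). Sfrp5, a Wnt5a-binding member described in fat tissue, had the highest mean signal of the Sfrp probes, with 266, 103, 212 and 118 in T1R1, 169, 83.6, 227 and 135 in T2R1, and 141, 108, 92.9 and 238 in T3R1, against 161, 501, 267 and 342 in control. Control replicates 2 to 4 lay above all exposed arrays. With all 4 controls no difference passed (T3R1 against control -1.11 ± 0.42, adjusted p = 0.145), and without control replicate 1 Sfrp5 was lower in T3R1 (-1.40 ± 0.42, adjusted p = 0.0235) and in T2R1 (-1.31 ± 0.42, adjusted p = 0.0384), while the T1R1 value was -1.15 ± 0.42 (adjusted p = 0.0730). Atrial muscle markers, 7 of 7 detected everywhere, summed to 111000 to 168000 in T1R1, 119000 to 197000 in T2R1 and 144000 to 176000 in T3R1, against 180000 to 208000 on control replicates 2 to 4 and 118000 on control replicate 1, and the part of atrial tissue in the Sfrp5 values was not tested.

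**Figure D5:**
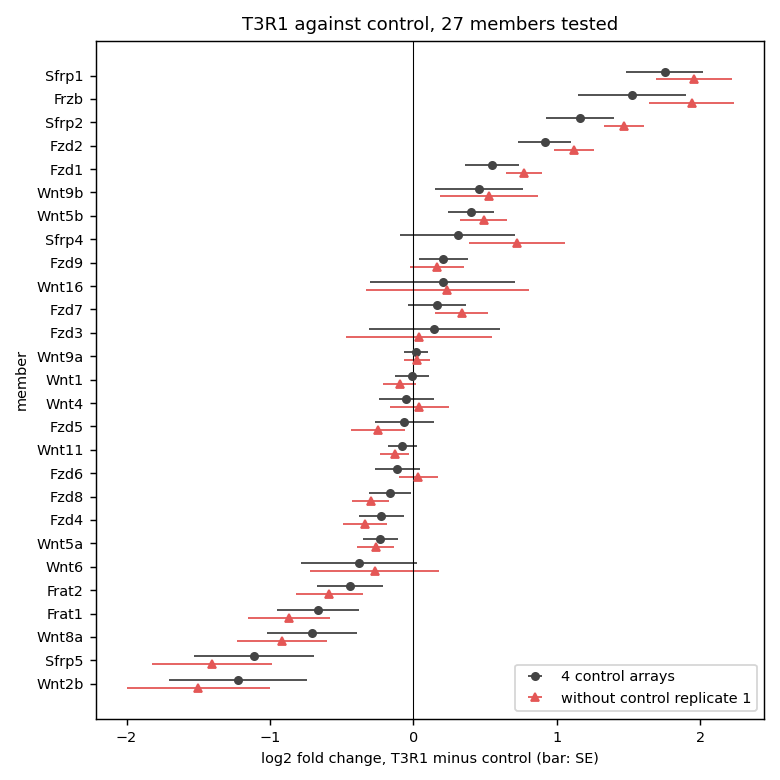
Log2 difference of T3R1 from control for the 27 tested members, with its standard error, from all 4 control arrays (circles) and without control replicate 1 (triangles). Without that array the members at both ends lie further from 0, with Sfrp1 at 1.96, Frzb at 1.94 and Wnt2b at -1.50.

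The plot of T3R1 against control sets both versions of this comparison side by side. Without control replicate 1, 10 of 27 members passed in T3R1, where 29.4% of all features passed (10.2% higher and 19.2% lower): Sfrp1, Sfrp2, Frzb, Fzd1, Fzd2 and Wnt5b higher, and Frat1, Sfrp5, Wnt2b and Wnt8a lower. In T1R1 without that array 1 member was higher and 2 lower (17.8% of all features, 8.18% higher and 9.65% lower), and in T2R1 3 were higher and 3 lower (24.4% of all features, 15% higher and 9.37% lower). With control replicate 1 kept, 0 of 27 members passed in T3R1 against control when only the 8 arrays of these groups were fitted by limma, and 8 had an unadjusted p under 0.05. The count was 0 too without control replicate 2, 3 or 4 or without T3R1 replicate 1, with 6 to 8 members at an unadjusted p under 0.05. The share of all features called in these fits is not given here. These counts of 0 therefore do not tell the family from other features.

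Frat1, a GSK3-binding activator of beta-catenin signalling, was lower in T1R1 and T2R1 than in control. Its signals were 35.9, 25.9, 22.8 and 39.4 in T1R1, 41.2, 23.2, 41.1 and 28.3 in T2R1, and 35.7, 37.9, 38.4 and 64.6 in T3R1, against 44.6, 56.6, 82.5 and 102 in control. No array of T1R1 or T2R1 reached the lowest control array, which was control replicate 1. The difference was 2.24-fold in T1R1 (-1.17 ± 0.29, adjusted p = 0.0202, and -1.37 ± 0.29 without control replicate 1, adjusted p = 0.00983). In T2R1 it was 2.09-fold (-1.06 ± 0.29, adjusted p = 0.0192, and -1.26 ± 0.29 without that array, adjusted p = 0.00884). Within the slide the T3R1 value was -0.66 ± 0.29 (adjusted p = 0.193), and it passed without control replicate 1 (-0.87 ± 0.29, adjusted p = 0.0361). Frat2, its neighbour, passed in no comparison on the probe used, with -0.39 ± 0.23 in T1R1 against control (adjusted p = 0.300). The other Frat2 probe went the other way: tested on its own, it was higher in T1R1 (0.73 ± 0.14, adjusted p = 0.00679) and in T2R1 (0.66 ± 0.14, adjusted p = 0.00629) than in control, and lower in T3R1 than in T1R1 (-0.81 ± 0.14, adjusted p = 0.00150), so the array does not settle a direction for Frat2.

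Genes that carry or answer the signal were taken from 6 lists of the pathway, of which 77 genes were tested. In T3R1 against control 1 of 77 was called (1.3%, where 0.694% of all features passed): Ccn5 (also known as Wisp2), a secreted protein induced by Wnt1 in mammary cells, was higher by 0.79 ± 0.17 (adjusted p = 0.0488). In T1R1 against control 3 were higher and 3 lower (7.79%), in T2R1 against control 3 higher and 7 lower (13%), and in T2R1 against T1R1 limma called 0 of 77, with 6 at an unadjusted p under 0.05. T3R1 had 9 higher and 4 lower than T1R1 (16.9%) and 11 higher and 10 lower than T2R1 (27.3%). These shares lay near or below those of all features apart from that of T3R1 against control, which rests on 1 gene. Without control replicate 1 the counts were 13 in T1R1 (16.9%, where 17.8% of all features passed), 19 in T2R1 (24.7%, where 24.4% passed) and 24 in T3R1 (31.2%, where 29.4% passed), of which 9 were higher and 15 lower in T3R1.

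Few direct targets of beta-catenin were called with all 4 controls, and more without control replicate 1. Of the 11 tested, limma called 0 in T1R1 against control (1 at an unadjusted p under 0.05), 1 in T2R1 (Notum, higher by 0.49 ± 0.11, adjusted p = 0.00575) and 1 in T3R1 (Ccn5), and the median log2 differences were 0.027, 0.22 and 0.34. Without control replicate 1, 1 was higher in T1R1 (Ccnd1), 4 in T2R1 and 4 in T3R1 and none lower, where 8.18%, 15% and 10.2% of all features were higher. Those of T3R1 were Ccn4 (2.14 ± 0.30, adjusted p = 0.000386), Ccn5 (0.99 ± 0.12, adjusted p = 0.000136), Ascl2 (1.72 ± 0.33, adjusted p = 0.00253) and Cd44, a hyaluronan receptor (1.39 ± 0.38, adjusted p = 0.0148). Those of T2R1 were Apcdd1, Ascl2, Ccnd1 and Notum. Axin2, the most widely used readout of beta-catenin signalling, was well above background on 11 of 16 arrays and did not enter the test, and Lef1 reached 10 arrays, Lgr5 1 and Sp5 0. Against T1R1, Ccn5 was higher in T3R1 (1.02 ± 0.17, adjusted p = 0.000913), as were Ccn4 (Wisp1), a matrix-associated protein (1.70 ± 0.40, adjusted p = 0.00826), and Ascl2, a transcription factor (1.29 ± 0.40, adjusted p = 0.0313). Notum, an enzyme that strips the lipid from Wnt proteins, was lower in T3R1 than in T2R1 (-0.53 ± 0.11, adjusted p = 0.00242).

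Coreceptors and the secretion route showed few calls against all 4 controls. Of the 13 coreceptor and R-spondin genes limma called 0 in T1R1 and 0 in T3R1 against control (1 and 2 at an unadjusted p under 0.05), and in T2R1 Rspo3, which strengthens Wnt signals, was lower (-1.04 ± 0.28, adjusted p = 0.0179). Without control replicate 1, on the shared slide, T3R1 had Ror2 (0.43 ± 0.09, adjusted p = 0.00488) and Sdc1 (1.23 ± 0.20, adjusted p = 0.00105) higher than control and Lrp5 lower (-0.25 ± 0.07, adjusted p = 0.0224), and of the secretion genes Wls (0.23 ± 0.08, adjusted p = 0.0492) and Vps35 (0.34 ± 0.11, adjusted p = 0.0362) higher. Between T3R1 and T2R1 4 of the 13 were higher and 1 lower, where 6.59% of all features were higher and 20.4% lower. The tyrosine kinase Ror2, a receptor of Wnt5a, was higher in T3R1 than in T2R1 by 0.52 ± 0.13 (adjusted p = 0.0101), the surface proteoglycan Sdc1 was higher by 0.93 ± 0.27 (adjusted p = 0.0186), and Lrp5 was lower (-0.46 ± 0.13, adjusted p = 0.0168). Lrp6 passed in none of the 6 comparisons with all arrays (T3R1 against control -0.12 ± 0.12, adjusted p = 0.572), and without control replicate 1 was lower in T1R1 (-0.43 ± 0.11, adjusted p = 0.0247) and in T2R1 (-0.37 ± 0.11, adjusted p = 0.0310). Of the 7 secretion genes, Wls, which carries Wnt proteins to the cell surface, was higher in T3R1 than in T1R1 (0.30 ± 0.10, adjusted p = 0.0412), and Vps35, which recycles Wls, was higher in T3R1 than in T2R1 (0.45 ± 0.12, adjusted p = 0.0109). Porcn, the enzyme that adds the lipid, passed in none, with -0.084 ± 0.084 in T3R1 against control (adjusted p = 0.575).

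Among 7 other secreted antagonists and their partners, Wif1, which binds Wnt proteins, was lower than control in T1R1 (-0.73 ± 0.20, adjusted p = 0.0323) and in T2R1 (-1.03 ± 0.20, adjusted p = 0.00309), and passed as lower in T3R1 without control replicate 1 (-0.71 ± 0.18, adjusted p = 0.0117). Dkk3, a secreted protein of the Dickkopf family that is also on the list of atrial markers used here, was lower in T2R1 than in control (-1.11 ± 0.26, adjusted p = 0.00918). Dkk3 was lower without control replicate 1 in T1R1 (-0.89 ± 0.24, adjusted p = 0.0256), T2R1 (-1.34 ± 0.24, adjusted p = 0.00278) and T3R1 (-0.75 ± 0.24, adjusted p = 0.0304). Kremen1, a receptor of Dickkopf proteins, was higher in T1R1 than in control (0.49 ± 0.12, adjusted p = 0.0205) and lower in T3R1 than in T1R1 (-0.50 ± 0.12, adjusted p = 0.00967). Of 22 genes of the cytoplasmic and nuclear core, 1 was lower in T1R1 and 2 in T2R1 than in control, and limma called 0 in T3R1 against control, with 4 at an unadjusted p under 0.05. The corepressor Tle1 was lower in T2R1 (-0.34 ± 0.07, adjusted p = 0.00402), as was the adaptor Dvl2 (-0.35 ± 0.09, adjusted p = 0.0177). Tle1 was lower in T3R1 too without control replicate 1 (-0.31 ± 0.07, adjusted p = 0.00518). Between T3R1 and T2R1 the corepressor Tle4 was higher (0.46 ± 0.10, adjusted p = 0.00482) and the transcription factor Tcf7l2 lower (-0.40 ± 0.12, adjusted p = 0.0216). Ctnnb1, which encodes beta-catenin, passed in no comparison with all arrays (T3R1 against control -0.081 ± 0.098, adjusted p = 0.653).

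The planar polarity and calcium branch, with 20 genes tested, held the lowest adjusted p of the 77 genes when all arrays were fitted. Celsr2, a cadherin of planar polarity, was higher than control in T1R1 (0.89 ± 0.16, adjusted p = 0.00354) and T2R1 (0.81 ± 0.16, adjusted p = 0.00299), and lower in T3R1 than in T1R1 (-1.10 ± 0.16, adjusted p = 0.000347). Mapk8, the kinase JNK1, was higher in T2R1 than in control (1.12 ± 0.21, adjusted p = 0.00246), and Camk2b, a calcium-dependent kinase, was lower in T3R1 than in T1R1 (-0.92 ± 0.15, adjusted p = 0.000974). Dact3, an inhibitor of Dishevelled, was higher in T3R1 than in T1R1 (0.47 ± 0.10, adjusted p = 0.00382). The calls of Rspo3, Wif1, Kremen1, Tle1, Dvl2, Notum, Celsr2 and Mapk8 against all 4 controls also passed without control replicate 1. Apart from Ccn5, every call named for these lists lay between the slides or needed control replicate 1 left out.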

How the data were processed

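RNA of individual hearts was labelled with Cy3 and hybridised to 16 arrays, per the labels' protocols. The scanner files hold the processed signal intensity of each spot and a flag for spots well above background, made with Feature Extraction 10.7.3.1 per the file headers. The authors also deposited a table of log2 values, without a stated method in the sources used here. Every array has the same median there (6.10) and the rank order of its mean signal, and it served as an alternative. From the intensities, log2 values minus each array's 75th percentile were computed over 59305 non-control spots. Probes that every array of some group showed well above background were kept (31390), each gene was represented by its kept probe of highest mean, and 22763 features, 3038 of them long noncoding RNA regions, were fitted with 1 mean per group in limma 3.58.1 (R 4.3.3). Benjamini-Hochberg adjustment ran over all features, with a threshold of 0.05. Names were updated through RefSeq accessions for 26762 probes, and 28919 keep the file's name. The code was tested on simulated data. The members, gene lists and markers were chosen with earlier results of these data known. By the rule for naming genes, all members are named, those called have every array's value, as has the probe of highest mean per role, and up to 4 called genes per pathway list have values, with Axin2, Ctnnb1, Lrp6 and Porcn. The number of arrays, 4 a group, limits the precision. Alternatives were other background corrections, scalings, filters, probe rules, fits and thresholds, and leaving out each array.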

Additional observations from a re-analysis of the deposited data

Results flagged for a closer look

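Single arrays far from the rest of their group were looked for in 108 sets of 4 arrays (27 members in 4 groups), and 9 passed Dixon's critical value for 4 samples, where chance gives about 1 in 20. In T1R1, replicate 4 had the lowest Wnt16 signal (1.34 percent of the array's 75th percentile) and the highest Wnt9b signal (99.6). In T2R1, replicate 3 had the lowest Fzd3 signal (1.7), and in T3R1, replicate 4 had the highest Frat1 signal (64.6). Control replicate 1 was the highest of its group in Fzd1 (242), Fzd2 (206) and Fzd7 (44) and the lowest in Fzd4 (515), and control replicate 2 was the lowest in Wnt9a (155).

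The effects of 2 exposures against the same controls also differed for several members. That difference equals the contrast between the exposures and was tested in limma, though slide and exposure cannot be told apart in it. T3R1 minus T1R1 was 0.719 for Fzd1, 1.21 for Fzd2, -0.515 for Fzd8, -2.66 for Wnt2b, -1.72 for Wnt8a, 1.14 for Frzb, 2.12 for Sfrp1 and 1.98 for Sfrp2 on the log2 scale. T3R1 minus T2R1 was 0.664 for Fzd1, 1.18 for Fzd2, 1.33 for Fzd3, 0.883 for Fzd7, -0.353 for Wnt1, -2.68 for Wnt2b, -0.686 for Wnt4, -1.96 for Wnt8a, 1.64 for Sfrp1 and 1.7 for Sfrp2.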

How the results depend on the processing

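The 29 calls on single members gave 921 values under the alternatives, of which 751 kept direction and call, 169 kept the direction but lost the call and 1 reversed: Wnt1 in T3R1 against T2R1, at 0.00205 with arrays centred on their median. Fzd2, Sfrp1, Sfrp2, Wnt2b and Wnt8a stayed called in T3R1 against both T1R1 and T2R1 under every alternative that tested them, as did Fzd7 against T2R1. Centring on the median put the median of all features at -0.44 in T1R1 and -0.366 in T2R1 against control, from -0.00598 and 0.0196. In T3R1 it put that median at 0.331 against T1R1 and 0.264 against T2R1, from -0.073 and -0.0912. It gave 13 members in T1R1 (1 higher, 12 lower), 10 in T2R1 (1 higher, 9 lower) and 1 in T3R1 against control, and in T3R1 9 higher and 2 lower than T1R1 and 10 higher and 2 lower than T2R1. Quantile normalization gave 0 higher and 2 lower in T1R1, and 1 higher and 3 lower in T2R1 against control. The authors' values gave 3 higher and 4 lower in T2R1. Fits of only the groups compared gave 1 in T1R1 and 0 in T3R1 against control (5 and 8 at an unadjusted p under 0.05). Array weights gave 11 in T2R1 and 11 in T3R1, no filter gave 1 in T3R1, and a filter on all 16 arrays gave 3 in T2R1. At an adjusted p under 0.01 the counts were 0, 0 and 0 in T1R1, T2R1 and T3R1 against control (6, 9 and 10 at an unadjusted p under 0.05), 5 in T3R1 against T1R1 and 6 against T2R1, and under 0.1 T1R1 had 5. Without both control replicate 1 and T1R1 replicate 1 they were 7 in T1R1 and 10 in T3R1. Leaving out 1 array at a time gave 1 to 4 in T1R1 (1 without control replicate 3 or 4 or T1R1 replicate 2 or 3), 1 to 6 in T2R1 (1 without T2R1 replicate 2) and 0 to 10 in T3R1 against control (10 without control replicate 1), 0 in T2R1 against T1R1, 6 to 9 in T3R1 against T1R1 and 6 to 12 against T2R1 (6 without T2R1 replicate 3 or T3R1 replicate 1). The causes of these changes were not tested. Except for the comparisons with control without control replicate 1, the share of all features called under each alternative is not given here. The counts therefore do not tell changes in the family from changes over all features. The replicate numbers did not pair the arrays: same-numbered deviations correlated between -0.324 and 0.391, and 5 of 16 arrays correlated best with their own number. With the replicate number as a block the counts were 3, 4 and 1 in T1R1, T2R1 and T3R1 against control, 0, 7 and 10 elsewhere.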

Other observations

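Wnt7a, a ligand of limb and brain development that did not enter the tests, was bright on 2 arrays only. Its probe had 41.1 percent of the 75th percentile on T1R1 replicate 3 and 173 on control replicate 3, whereas the remaining 14 lay between 0.843 and 2.73. T1R1 replicate 3 also held the highest values of Wnt3 (11.2, against 0.444 to 1.48 on the other 15) and of Wnt7b (30.9, against 1.31 to 9.31), and was the array with the fewest spots well above background (46.51%). Wnt6, a ligand of epithelia, reached 37.8 on T1R1 replicate 2, and elsewhere lay between 6.63 and 15.4.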
